A study of Mus musculus with 2 samples.

Results

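The genes described here are 29 mouse genes of homologous recombination and the DNA damage response, chosen by name from a feature table of 32285 genes, in which all 29 were found. By role, 11 act in recombination itself (Brca1, Brca2, Bard1, Palb2, Rad51c, Xrcc2, Xrcc3, Rad54l, Blm, Exo1 and Rbbp8), 7 belong to the Fanconi anaemia pathway (Fanca, Fancb, Fancd2, Fancg, Fanci, Fancl and Fancm), and 11 sense, signal or coat damaged DNA (Rad50, Nbn, Atm, Atr, Chek1, Chek2, Trp53bp1, Mdc1, Topbp1, Rpa1 and Rpa2). The rule that selects them uses names and no measured value, though the list was drawn up with earlier results of these data known. Every one of the 29 passed the minimum of 1 CPM used below (CPM, UMIs per 1000000, a UMI being 1 counted RNA molecule).

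Homologous recombination repairs a double-strand break by copying the sister chromatid, so it works when DNA has been or is being replicated. The broken end is cut back to single-stranded DNA, RPA coats it, and BRCA2 with PALB2 prepares it for pairing with the matching sequence. Fanconi anaemia proteins unhook DNA crosslinks at stalled forks and hand the break on to recombination, while the kinases ATM and ATR report breaks and single-stranded DNA to CHEK2 and CHEK1. Mouse embryonic stem cells spend much of their cycle replicating and are known for heavy use of this pathway.

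The cells were embryonic stem cell lines of the mouse strain C3H/HeSn-Paf/J, 3 lines from XX embryos, 3 from XO and 3 from XY, grown in serum and LIF on gelatin with irradiated embryonic fibroblast feeders. All 9 lines were pooled into 1 droplet library at an early passage (time 1) and 1 after 10 further passages (time 2). The series asks how the dose of the X chromosome bears on the gain of whole chromosomes in such cells. Cells were not assigned to lines here, so each time point is treated as 1 sample and no test was made between time points, states or gain classes. Every interval is an exact 95% interval that covers counting error only.

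After filtering, 23587 cells with a median of 44435 UMIs remained at time 1 and 26137 cells with a median of 50829 at time 2. The libraries shared 169 of their cell barcodes. Clustering was done without the 29 genes and gave 13 clusters. The 4 clusters led by Rhox9, Nanos3, 1700097N02Rik and Jam2 are called the stem cell clusters below, with 9984 cells at time 1 and 20346 at time 2. Their summed level of 12 markers of pluripotency ran from 6642 to 12665 CPM. That range also takes in the Rpgrip1-led (8560), Gng3-led (8550) and 2-cell-like (9678) clusters, which were kept apart. No pluripotency marker was among the 10 leading genes of any of the 4, and the Rhox9-led cluster had 2 of trophoblast (Krt7 and Tfap2c) there. The words stem cell clusters, and stem cells for their cells, are thus a label below and not a cell type shown by their leading genes. Most of these clusters belonged to 1 library: the Rhox9-led cluster had 8075 cells at time 1 and 763 at time 2, the Nanos3-led 87 and 6389, and the 1700097N02Rik-led 53 and 10997. Only the Jam2-led cluster was large in both, with 1769 and 2197 cells.

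In the stem cell clusters the 29 genes together made up 909 CPM at time 1 (95% interval 907 to 912) and 1036 at time 2 (1034 to 1038). At an equal depth of 10000 UMIs per cell, a cell carried a median of 9 UMIs of the 29 genes at time 1 (5th to 95th percentile 4 to 15) and a median of 10 at time 2 (5 to 17). Cells without any such UMI made up 0.07% and 0.02%. The variance of that number over cells was 12.7 at a mean of 9.03 at time 1, and 14.6 at a mean of 10.4 at time 2.

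Detection of the single genes at that depth ran from 2.82% of cells at time 1 and 2.36% at time 2 for Fancg, a Fanconi core complex subunit, to 66.1% and 70.0% for Rpa2, the middle subunit of RPA. As a background, each of the 29 was found in a smaller share of fibroblast-like cells in both libraries by point estimate; how many of all genes would be was not computed. Exo1, the exonuclease that lengthens the cut-back end, was found in 25.3% and 41.8% of stem cells against 10.4% and 14.2% of fibroblast-like cells (in 73.8% and 89.6% of stem cells without thinning). Fancg was found in 2.82% of stem cells at time 1 against 2.37% of fibroblast-like cells (1.27 to 4.02), an interval that takes in both. The share of cells that free RNA would give was not computed for any gene. Barcodes with fewer than 1000 UMIs held the 29 genes at 984 and 1124 CPM, so free RNA may have carried them too. In each library 21 of the 29 had a higher CPM in those barcodes than in the stem cell clusters. Whether those barcodes held free RNA was not tested. The strand setting of the counting is not given in the sources used here, and 10 of the 29 genes overlap another annotated gene on the opposite strand.

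**Figure D1:**
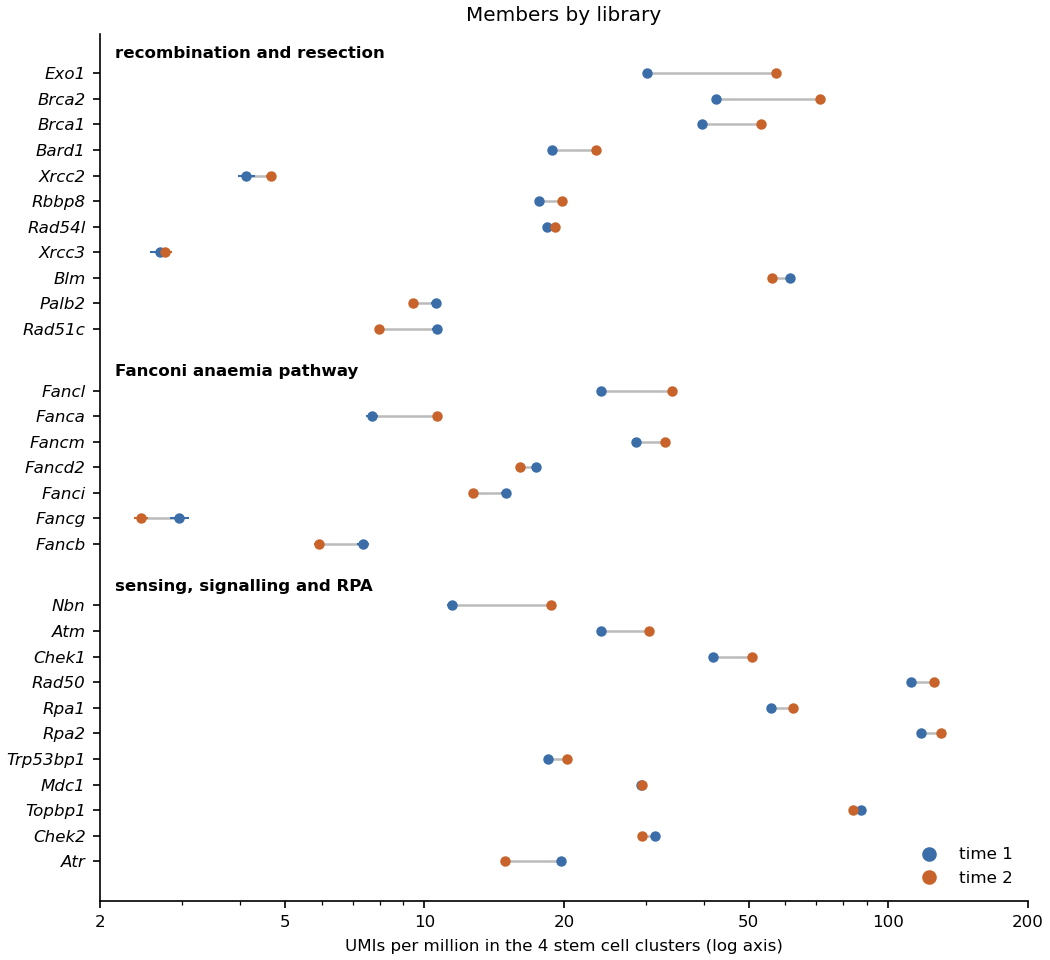
Level of each of the 29 genes in the stem cell clusters, in CPM on a log axis, at time 1 (blue) and time 2 (orange), grouped by role, with 95% counting intervals. The widest shifts toward higher levels at time 2 are those of Exo1, Brca2 and Nbn, and the widest toward lower levels those of Rad51c and Atr.

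After 10 further passages, 7 of the 29 genes were higher and 2 lower past the threshold used throughout, a ratio of 0.8 or less, or of its inverse or more (close to 0.32 on the log2 scale). Over all 12645 genes tested in this comparison 15.9% were higher and 33.7% lower by that measure (on CPM plus 0.1, leaving out genes below 1 CPM at both times). The median of the 29 was 0.14 on the log2 scale and the median of all genes was -0.12, with 19 of the 29 and 39.5% of all genes above 0. The higher genes were Exo1, Brca2, Nbn, Fancl, Fanca, Brca1 and Atm, and the lower ones Rad51c and Atr.

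Among the recombination genes, Exo1 stood furthest apart, at 30.2 CPM at time 1 (29.8 to 30.7) and 57.2 at time 2 (56.8 to 57.7), a log2 ratio of 0.92 (0.90 to 0.95). Brca2, which acts on the single-stranded DNA of the cut-back end, was at 42.6 and 71.4 CPM, a log2 ratio of 0.74. Brca1, which promotes the cutting back of ends and brings PALB2 to the break, was at 39.7 and 53.2 (0.42). Its partner Bard1 was at 18.8 and 23.5 and lay just under the threshold. Rad51c, which also acts in recombination after ends are cut back, was the gene of this group that was lower, at 10.6 and 7.99 CPM, a log2 ratio of -0.41. The remaining 6 genes of this group lay within the threshold in either direction: Blm, the helicase that dissolves crossed strands, at -0.13, Palb2 at -0.17, Rad54l at 0.06, Xrcc2 at 0.17, Xrcc3 at 0.03 and Rbbp8, which starts the cutting back of ends, at 0.16.

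In the Fanconi group the ubiquitin ligase Fancl was at 24.0 and 34.1 CPM (log2 ratio 0.51) and the core complex subunit Fanca at 7.72 and 10.6 (0.46). Both are core complex genes, and their complex partners Fancb (7.37 and 5.91, -0.31) and Fancg (2.96 and 2.45, -0.26) lay on the other side of 0. Fancb lies on the X chromosome, and the balance of cells with more or less X-linked RNA differed between the libraries, as given further on. The part of X content in its ratio was not tested. The ligase's pair of substrates, Fancd2 and Fanci, had log2 ratios of -0.11 and -0.23, and the translocase Fancm had 0.20.

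Of the genes that sense breaks, Nbn was at 11.5 and 18.7 CPM (0.70) while Rad50, which sits in the same MRN complex, was at 112 and 126 (0.17). The sister kinases differed in sign: Atm was at 24.0 and 30.4 (0.34) and Atr at 19.7 and 14.9 (-0.40, interval -0.43 to -0.37). Chek1, the kinase that ATR activates, was at 41.9 and 51.0 (0.28), and Chek2, the kinase that ATM activates, was at 31.5 and 29.4 (-0.10). The chromatin adaptors Mdc1 and Trp53bp1 had log2 ratios of 0.00 and 0.13, the ATR activator Topbp1 had -0.06, and the RPA subunits Rpa1 and Rpa2 had 0.16 and 0.14.

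The ratios depended on the scaling between libraries. With TMM scaling every log2 ratio was 0.15 higher, 10 of the 29 genes were past the threshold on the higher side and 0 on the lower (25.1% and 24.8% of all genes), and Blm, Fancd2, Chek2 and Topbp1 passed from below 0 to above it. Bard1, Chek1 and Fancm were the 3 added on the higher side, Rad50 lay just under the threshold, and Rad51c and Atr were no longer past the threshold.

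The libraries also differed in the level of cell cycle genes and in chromosome content. A list of 34 S-phase genes that holds none of the 29 was at 3745 CPM at time 1 and 4771 at time 2, and the share of cells above the fourth cut of time 1's S-phase quintiles was 21.6% and 55.7%. The lowest quintile of each library had a mean of 23.0 and 31.5 UMIs of that list per 10000, and the highest 53.1 and 66.4. Whether more cells were in S phase, or cells held more of this RNA, was not tested. Weighting both libraries to the same share in each quintile left the sum of the 29 genes 0.065 higher on the log2 scale in place of 0.19. Under that weighting Exo1 (0.67), Brca2 (0.60), Nbn (0.58), Fancl (0.46) and Fanca (0.38) were still past the threshold. Brca1 (0.15) and Atm (0.19) were not. Rad51c (-0.49), Fancb (-0.37) and Fanci (-0.34) were past it on the lower side, and Atr lay at its edge with -0.32. The share of all genes past the threshold under this weighting is not given here.

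Within single clusters the difference in the sum was smaller. Rhox9-led cells had 897 and 889 CPM of the 29 genes at time 1 and time 2, and Jam2-led cells had 944 and 996. Exo1 was still higher at time 2 in both (log2 0.35 and 0.46) and Rad51c lower in both (-0.52 and -0.59). Brca2 had 0.65 in the Jam2-led cluster and 0.20, short of the threshold, in the Rhox9-led one. In the Jam2-led cluster 3 genes were higher and 1 lower (9.8% and 23.7% of all genes). In the Rhox9-led cluster 1 was higher and 4 lower (13.2% and 12.7%), the lower ones being Rad51c, Xrcc3 (-0.48), Fancd2 (-0.46) and Fanci (-0.45). In cells without a called chromosome gain, 8457 at time 1 and 4125 at time 2, the sum was 905 and 990 (log2 0.13). These too came from different clusters: 6758 were Rhox9-led and 1644 Jam2-led at time 1, and 450 and 2018 at time 2. In these cells 6 genes were higher and 1 lower at time 2 (14.5% and 26.7%). There Brca2 (0.61), Exo1 (0.55), Nbn (0.52), Fancl (0.46), Brca1 (0.39) and Atm (0.36) were past the threshold, Rad51c had -0.56, and Fanca had 0.14. Fancb was on the other side of 0 there, with 7.53 and 7.79 CPM (0.05, -0.03 to 0.13).

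The level of the 29 genes rose with the S-phase list from cell to cell. Stem cells of each library were sorted into 5 equal groups by their share of UMIs on that list at 10000 UMIs per cell. From the lowest quintile to the highest, the sum of the 29 was 762, 848, 906, 952 and 1072 CPM at time 1, and 891, 970, 1025, 1090 and 1220 at time 2. Log2 ratios of the highest over the lowest quintile were 0.49 and 0.45. Past the threshold and higher were 21 of the 29 at time 1 and 18 at time 2, with 0 lower, against 13.8% and 13.9% of all genes higher and 13.2% and 11.6% lower. The median of the 29 was 0.37 and 0.38, and that of all genes 0.03 and 0.04. Median depth in the lowest and highest quintile was 49451 and 48993 UMIs at time 1, and 51135 and 45949 at time 2. The sum rose with each step in both libraries.

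Brca1 gave the steepest course, with 27.9, 33.5, 38.7, 43.2 and 55.0 CPM over the quintiles of time 1 and 38.2, 44.99, 51.1, 59.3 and 74.2 at time 2 (log2 0.98 and 0.96). Rpa2 went from 81.3 in the lowest to 158 in the highest quintile at time 1 and from 100 to 162 at time 2 (0.95 and 0.69). Exo1 went from 23.7 to 39.5 and from 41.7 to 77.2 (0.74 and 0.89). For Brca1 and Rpa2 the counting intervals of neighbouring quintiles did not overlap at any step in either library, and for Exo1 they overlapped only between the third and the fourth at time 1. Mdc1, the scaffold that binds marked histones around a break, went from 22.7 to 35.8 and from 22.6 to 37.8 (0.66 and 0.74). Rad54l, a DNA translocase that acts in strand pairing, had log2 ratios of 0.74 and 0.56, Chek1 had 0.66 and 0.63, and Bard1 had 0.48 and 0.65.

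Atr was the exception among the 29 in both libraries. It was at 20.3 CPM in the lowest quintile and 19.3 in the highest at time 1 (log2 -0.07, -0.16 to 0.02) and at 15.9 and 14.1 at time 2 (-0.17, -0.24 to -0.11). The other 28 were above 0 in both libraries, beside 54.5% of all genes at time 1 and 55.6% at time 2. The flattest of the 28 were Rad50 (0.17 and 0.13), Fancg (0.17) and Chek2 (0.18) at time 1, and Fancl (0.07), Palb2 (0.09) and Xrcc3 (0.11) at time 2.

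Sorting the same cells by a list of 52 G2/M genes gave a weaker and partly opposite order. The sum went from 868 to 928 CPM at time 1 and from 987 to 1066 at time 2, log2 ratios of 0.10 and 0.11. The median of the 29 was 0.16 and 0.12, and that of all genes 0.10 and 0.05, so at time 1 the sum moved no more than the median gene. Of the 29, 6 were higher and 1 lower at time 1 (18.2% and 4.66% of all genes), and 4 and 0 at time 2 (12.2% and 7.84%). Fanci (0.47), Brca2 (0.40), Atr (0.39) and Rad50 (0.37) had the highest ratios at time 1, and Mdc1 (0.42), Fancd2 (0.41), Bard1 (0.40) and Trp53bp1 (0.36), the adaptor that shields ends from being cut back, at time 2. The RPA subunits ran the other way, Rpa2 with -0.35 and -0.19 and Rpa1 with -0.32 and -0.17. Next lowest were Xrcc3 (-0.20) and Fanca (-0.08) at time 1, and Rad54l (-0.13) and Fancb (-0.09) at time 2. Median depth also rose over these quintiles, from 38873 to 59318 UMIs at time 1 and from 42975 to 56217 at time 2, and its part in the ratios was not tested.

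**Figure D2:**
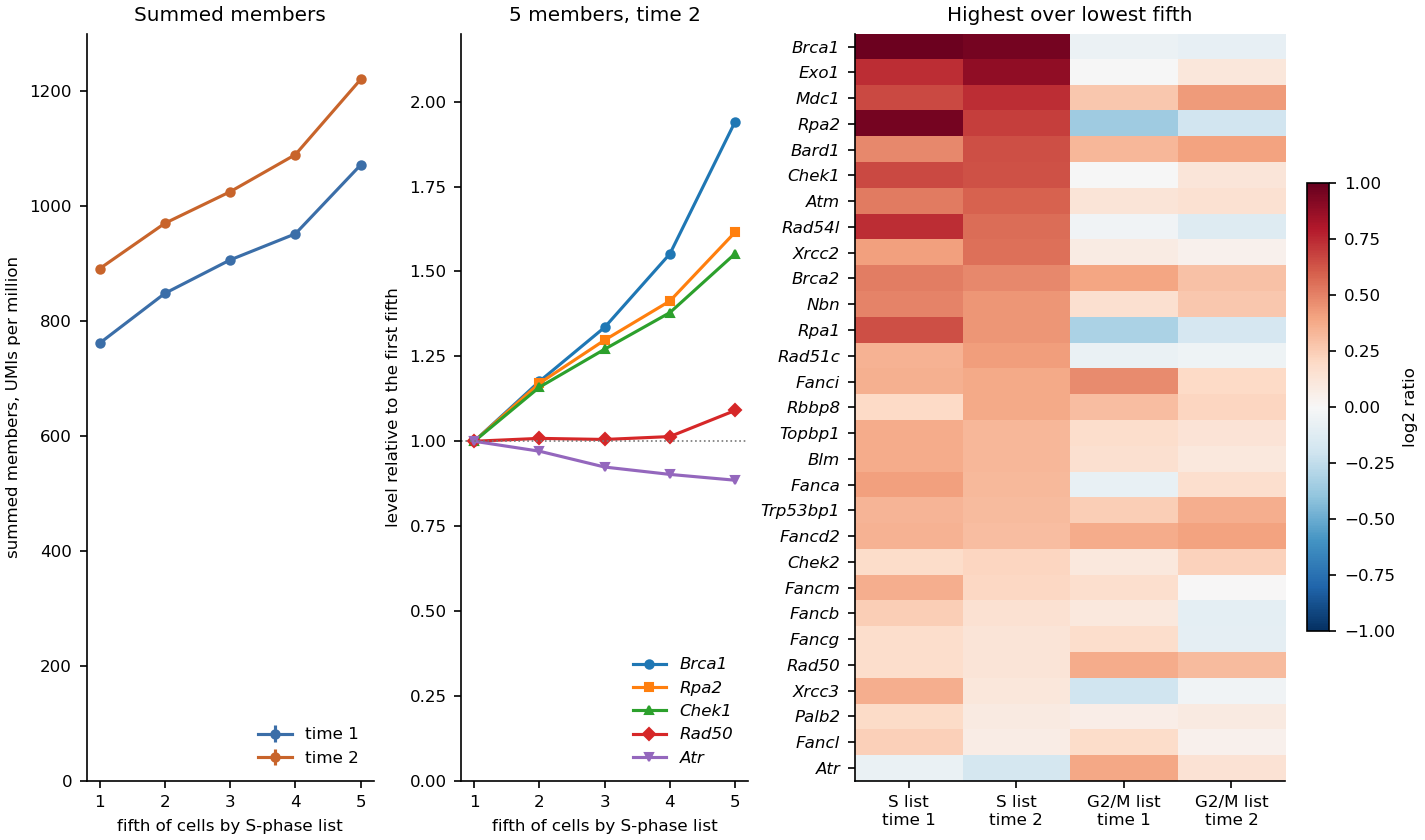
Summed level of the 29 genes, in CPM, over quintiles of the S-phase list in both libraries (left), the level of 5 genes relative to the lowest quintile at time 2 (middle), and the log2 ratio of the highest over the lowest quintile of the S-phase and G2/M lists for each gene (right). The sum climbs from 762 to 1072 and from 891 to 1220, Brca1 is steepest, and Atr alone falls below its starting level.

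RefSeq promoter windows (GRCm38.p6, the 250 bases before RefSeq's start of the gene) were on hand for 23 of the 29 genes. RefSeq's start can differ from the GENCODE positions used elsewhere: the windows of Fancl, Fanci and Chek1 and 1 of the 2 of Rad51c lie inside the GENCODE gene, and those of Bard1, Fancg, Topbp1 and others partly so. They were searched on both strands for the letters TTTCCCGC, TTTCGCGC, TTTGCCGC and TTTGGCGC, which are forms of the site known for the E2F factors that switch on genes at the start of S phase. Of the 23 genes 6 held a match (26.1%), against 2.16% of 27025 genes with a window of that length. The 6 sites are shown as the motif, of the 3 searched, whose share among these genes differed most from that among all genes; the other 17 genes had none in their windows. They are written 5′ to 3′ on the gene's strand with the matched letters in capitals, and those of Brca2, Chek2 and Topbp1 match on the opposite strand.
Bard1, chr1:71103163-71103192 (minus strand): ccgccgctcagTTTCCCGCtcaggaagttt
Brca2, chr5:150522442-150522471 (plus strand): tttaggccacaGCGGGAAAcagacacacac
Chek2, chr5:110839820-110839849 (plus strand): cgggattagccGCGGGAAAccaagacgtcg
Fancg, chr4:43010335-43010364 (minus strand): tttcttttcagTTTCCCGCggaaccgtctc
Mdc1, chr17:35841471-35841497 (plus strand): tcttcagcctgTTTCCCGCcggtagcc
Topbp1, chr9:103305187-103305216 (plus strand): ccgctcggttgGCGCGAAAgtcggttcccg

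Measured to RefSeq's start, the site lies 209 bases before it in Bard1, 168 in Brca2, 152 in Chek2, 52 in Fancg, 16 in Mdc1 and 129 in Topbp1. That of Fancg is inside the GENCODE gene. The genes with a match did not share 1 course over the S-phase quintiles: Mdc1 and Bard1 were among the steeper ones, while Chek2 (0.18) and Fancg (0.17) were among the flattest at time 1. Brca1, the steepest, had no match in its window. Atr had none either, and its window is shown as that of the gene that went against the other 28, in lower case because none of the E2F letters is in it.
Atr, chr9:95857347-95857596 (plus strand): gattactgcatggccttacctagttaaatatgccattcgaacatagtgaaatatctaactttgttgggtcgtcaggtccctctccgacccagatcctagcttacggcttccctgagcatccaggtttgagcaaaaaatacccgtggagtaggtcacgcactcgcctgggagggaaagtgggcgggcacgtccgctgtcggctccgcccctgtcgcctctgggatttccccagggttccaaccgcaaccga

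The letters CCAAT, the core of the site of the factor NF-Y, were in windows of 12 of the 23 genes (52.2%) and of 37.5% of all. The CHR letters TTTGAA and TTCGAA, known from genes that peak in G2 and mitosis, were in the windows of Atr and Bard1, 2 of 23 genes, and of 19.6% of all. These matches describe letters in a window and no binding was measured.

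Across cell states, fibroblast-like cells, the type of the irradiated feeders, had the lowest level of the named states. Their sum was 400 CPM at time 1 (393 to 407, 548 cells) and 513 at time 2 (710 cells), log2 ratios of -1.18 and -1.01 against the stem cell clusters of the same library. Of the 29 genes 0 were higher and 28 lower in each library, against 37.4% higher and 38.9% lower of all genes at time 1, and 37.6% and 38.8% at time 2. The median of the 29 was -1.27 and -1.02. Furthest below were Blm (-1.65), Fanci (-1.63), Rad51c (-1.59) and Exo1 (-1.52) at time 1, and Exo1 (-1.46), Brca1 (-1.40), Brca2 (-1.40) and Rad51c (-1.35) at time 2. Rbbp8 was the gene short of the threshold, with -0.31 and -0.24, followed by Fancg (-0.34 and -0.38), Xrcc3 (-0.49 at time 1), Trp53bp1 (-0.51 and -0.47) and Nbn (-0.65 at time 2).

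Stem cell RNA was present in these barcodes. Dppa5a, a stem cell marker, was at 2392 and 1886 CPM in them and at 8071 and 4488 in the stem cell clusters, while the collagen gene Col1a1 was at 772 and 570 in them. In the quintile of fibroblast-like cells with least RNA of Pou5f1, Dppa5a and Tdgf1 (110 and 142 cells, Dppa5a at 162 and 46), the sum of the 29 was 176 (167 to 185) and 196 CPM, log2 ratios of -2.37 and -2.41. The S-phase list was lower in fibroblast-like cells by a similar amount as the 29 genes, at -1.13 and -1.07. Of 12 targets of p53, 6 were higher and 2 lower in all fibroblast-like cells at time 1, and 8 and 1 at time 2, beside the 37.4% and 37.6% higher of all genes. Bbc3 (-0.40 and -0.41) was lower in both, and Sesn2 (-0.36) at time 1. Cdkn1a, the p53 target that stops the cell cycle, was at 517 CPM against 82.7 at time 1 and at 502 against 61.7 at time 2.

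Primed epiblast-like cells, which have left the naive state, had a sum of 789 at time 1 and 861 at time 2 (log2 -0.20 and -0.27), with the S-phase list nearly level (0.02 and -0.05). This class was mostly the Sema6a-led cluster at time 1 (6227 of 6305 cells, 789 CPM) and the Apela-led one at time 2 (4197 of 4478, 869 CPM), and the 281 Sema6a-led cells of time 2 had 726 CPM. The Apela-led cluster had 1 primed marker (Dnmt3b) and 1 neural one (Nes) among its 10 leading genes. No gene of the 29 was higher at time 1 and 8 were lower, and at time 2 1 was higher and 10 lower. All genes gave 27.8% and 23.6%, and 26.3% and 21.3%. Fanci (-0.72 and -0.86), Rad51c (-0.71 and -0.77) and Fancm (-0.69 and -0.68) were among the 4 lowest in both libraries, beside Fancb (-0.71) at time 1 and Bard1 (-0.61) at time 2. Rbbp8 (0.30 and 0.39), Xrcc3 (0.18 and 0.12), Nbn (0.13 and 0.08) and Trp53bp1 (0.07 and 0.31) were the 4 highest in both.

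In mesendoderm-like cells, 213 and 219 of them, the sum was 703 and 671 (-0.37 and -0.63), with 2 genes higher and 15 lower at time 1 and 1 higher and 22 lower at time 2 (35.6% and 28.5%, then 36.1% and 29.6% of all genes). The S-phase list was at -0.20 and -0.32. Fanci (-1.36 and -1.76) and Rad51c (-1.14 and -1.80) were lowest in both, followed by Fancm (-1.05) and Mdc1 (-0.71) at time 1 and by Bard1 (-1.22) and Brca2 (-1.21) at time 2. Rbbp8 again stood on the other side, at 27.1 CPM against 17.7 in the stem cell clusters at time 1 and 34.2 against 19.8 at time 2 (0.61 and 0.78). Nbn had 0.34 and 0.03, Xrcc3 0.30 at time 1, and Trp53bp1 0.13 in both.

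The other states had lower sums than the stem cell clusters as well. In 2-cell-like cells, 146 at time 1 and 60 at time 2, the sum was 804 and 936 (-0.18 and -0.15), with 0 higher and 10 lower, then 2 higher and 8 lower (25.9% and 20.8%, 27.8% and 20.5%). Brca2 was among the 4 highest of the 29 in both (0.22 and 0.26) and Nbn among the 4 lowest (-0.64 and -0.74). Endoderm-like cells at time 2 had a sum of 719 (-0.53), with 0 higher and 17 lower (30.9% and 29.6%), led by Brca2 (-1.15) and Fancm (-1.10). The Rpgrip1-led cluster, present almost only at time 1 with 6201 cells and unnamed, had 704 (-0.37) and 0 higher and 18 lower (12.0% and 23.2%), with Fancm at -0.82, Brca1 at -0.68 and Rpa2 at 0.02. Its median depth was 28873 UMIs against 50748 in the stem cell clusters. The Ramp2-led cluster, also unnamed, had 774 and 723 (-0.23 and -0.52), with 0 higher and 10 lower at time 1 and 1 higher and 25 lower at time 2 (31.9% and 27.2%, 35.4% and 28.1%). The higher gene there was Rbbp8 at 0.65. A further unnamed cluster led by Gng3, 69 cells of time 1, had 361 CPM. Its cells stood apart, with a median of 352626 UMIs and 0.11% mitochondrial UMIs.

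**Figure D3:**
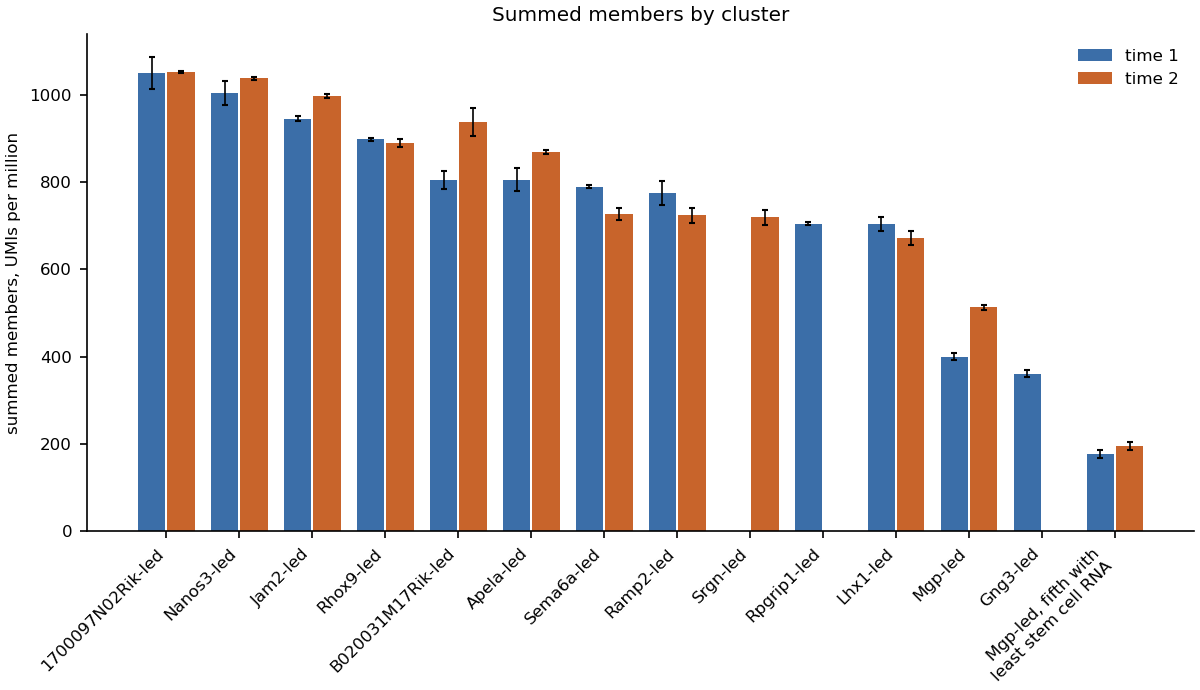
Summed level of the 29 genes in CPM in each cluster and library (bars, with 95% counting intervals) and in the quintile of fibroblast-like cells with least stem cell RNA. Bars of the stem cell clusters lie between 889 and 1051, and those of fibroblast-like cells at 400 and 513, or 176 and 196 in that quintile.

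Gains of chromosomes were read from each stem cell's share of UMIs on an autosome, with the 29 genes left out, and called at 1.3 times the median of time 1. A cell without a call was common at time 1 (8457 of 9984 cells) and less common at time 2 (4125 of 20346), when 4062 cells had a gain of chromosome 1 alone, 3361 of chromosome 8 alone and 3982 of both. These classes depended on the base of the call. Set against the autosomes other than 1, 8 and 14, they held 2235, 3284 and 5351 cells at time 2. Bard1 and Exo1 lie on chromosome 1, Fanca on 8, none of the 29 on 14, and Brca1, Fancl, Rad50, Rad51c and Rpa1 on 11. Unless said otherwise, ratios for a gain compare cells of 1 library with that gain alone with the cells of that library without one. The median gene of a gained chromosome, and ranks among its genes, rest on genes that include those used for the call. They were thus partly set by the call, in which the 29 took no part.

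For the sum of the 29 genes, log2 ratios over the single-gain classes ran from -0.01 to 0.23. With a gain of chromosome 8 it was 945 CPM against 905 at time 1 (log2 0.06) and 1011 against 990 at time 2 (0.03). The first was 0.03 at equal S-phase shares, and the second was 0.02 within the Nanos3-led cluster and -0.01, with the other sign, when gains were called at 1.4 times. With a gain of chromosome 1 it was 985 at time 1 (115 cells, 0.12) and 1070 at time 2 (0.11). A gain of chromosome 14 at time 2 (124 cells) gave 981 (-0.01, -0.05 to 0.02). With a gain of 11 it was 1004 at time 1 (151 cells, 0.15) and 1164 at time 2 (112 cells, 0.23). That sum includes the 5 genes that lie on 11, and Rad50 alone went from 110 to 177 and from 107 to 191. The sum without those 5 genes is not given here. The median of the 29 was 0.02 and 0.16 there. Counts past the threshold for chromosome 1 were 5 higher and 2 lower at time 1 (12.6% and 24.2% of all genes) and 6 higher and 1 lower at time 2 (9.8% and 21.3%). For chromosome 8 they were 2 higher and 3 lower (9.48% and 20.4%), then 2 higher and 1 lower (11.1% and 17.7%). For chromosome 11 they were 6 and 4 (19.0% and 17.0%), then 8 and 2 (19.6% and 18.3%). The higher ones for chromosome 11 included genes that lie on it: Brca1, Fancl, Rad50 and Rpa1 in both libraries, and Rad51c at time 2.

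Of the genes that lie on a gained chromosome, Exo1, Bard1 and Fanca were higher in both libraries in the cells that had gained it, and those on 11 are given further on. Exo1 (chr1:175880581-175913489) was at 30.04 CPM without a gain and 48.5 with a gain of chromosome 1 at time 1 (log2 0.69, 0.53 to 0.84), and at 43.9 and 64.4 at time 2 (0.55, 0.52 to 0.59). Cells with a gain of 1 and 8, of 1 and 14, or of all 3 at time 2 had 64.1, 69.2 and 67.9. With a gain of chromosome 8 alone Exo1 was at 29.5 at time 1 and 45.3 at time 2, log2 ratios of -0.02 and 0.05. A gain of chromosome 14 alone or of 11 alone at time 2 gave 56.4 and 50.3. All 4 classes with a gain of chromosome 1 at time 2 were thus above those without it. Bard1 (chr1:71027498-71103146) was at 18.7 and 24.9 at time 1 (0.41) and at 20.5 and 25.8 at time 2 (0.33), and with a gain of 8 alone at 20.3 and 20.4 (0.11 and -0.01). The median gene of chromosome 1 had ratios of 0.45 and 0.39 in these comparisons, which placed Exo1 at the 81.4th and 76.9th percentile of the chromosome's genes and Bard1 at the 44.6th and 41.5th.

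Fanca (chr8:123268300-123318576) was at 7.53 CPM without a gain and 10.6 with a gain of chromosome 8 at time 1 (log2 0.49, 0.35 to 0.64), and at 8.33 and 10.99 at time 2 (0.40, 0.31 to 0.49). The median gene of chromosome 8 had 0.49 and 0.40. Fanca was also 0.34 higher at time 2 in cells with a gain of chromosome 1 alone, where the median gene of chromosome 8 had 0.18, and had -0.37 (-0.86 to 0.07) there at time 1. When each chromosome was set against the autosomes other than 1, 8 and 14 in calling gains at time 2, Fanca had 0.26 in cells with a gain of 1 (2235 cells, median of chromosome 8 0.14), 0.45 with a gain of 8 (3284) and 0.51 with both (5351).

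With a gain of chromosome 11, Rad50 went from 110 to 177 CPM at time 1 and from 107 to 191 at time 2 (0.69 and 0.83), and Rpa1 from 55.4 to 84.4 and from 62.8 to 84.3 (0.61 and 0.42). Brca1 had 0.44 and 0.53, Fancl 0.44 and 0.34, and Rad51c 0.25 (-0.03 to 0.51) and 0.42. The median gene of chromosome 11 had 0.52 and 0.49. All 5 genes were above 0 in both libraries, from 151 and 112 cells.

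Genes on other chromosomes also differed between the classes. At time 2 cells with a gain of chromosome 1 had Rad50, Xrcc3 and Trp53bp1 at 0.33 each, Fancb at -0.57, Fancg at -0.25, and Rad54l and Atr at -0.12 each. At time 1 (115 cells) Rad50 was at 110 CPM without and 134 with this gain, Xrcc3 at 2.64 and 3.54, and Trp53bp1 at 18.4 and 18.3. Fancb, Fancg, Rad54l and Atr were lower with it there too by point estimate. Chek2 (31.7 and 41.1) and Nbn (11.2 and 14.2) were past the threshold at time 1 but not at time 2. With a gain of chromosome 8 Xrcc3 had 0.33 at time 1 and 0.37 at time 2, Nbn 0.31 and 0.29, Fancd2 0.32 and 0.07, Trp53bp1 0.08 and 0.31, Fancm -0.43 and -0.11, and Fancg -0.51 and -0.26. Of these for chromosome 8, Xrcc3 in both libraries and Fancm and Fancg at time 1 were past the threshold. The S-phase list was 0.09 and 0.02 higher with a gain of 8, and 0.12 and 0.10 higher with a gain of 1. Clusters differed too: of the cells with a gain of chromosome 8, 705 of 745 at time 1 were Rhox9-led, as were 6758 of the 8457 without a gain, and 1931 of 3361 at time 2 were Nanos3-led, as were 829 of the 4125. Of the cells with a gain of chromosome 1 at time 2, 2791 of 4062 were 1700097N02Rik-led and 30 Jam2-led, against 828 and 2018 of those without a gain. The part of cell cycle and cluster in these ratios was not tested gene by gene.

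**Figure D4:**
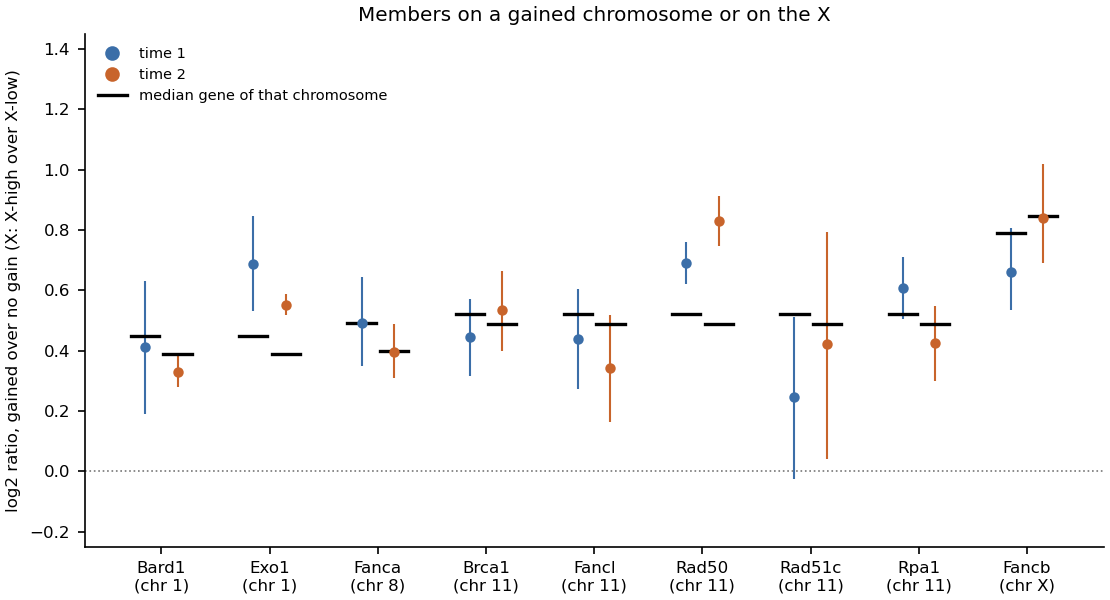
Log2 ratio of the level in cells with a gain over cells without one, for the genes on chromosomes 1, 8 and 11, and of X-high over X-low cells for Fancb, in both libraries, with 95% counting intervals. Black lines mark the median gene of that chromosome, over genes that include those used to call the gain or the X class. Exo1 and Rad50 lie above their line, and Fancb below its line at time 1.

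Fancb, a core complex subunit, is the only 1 of the 29 on the X chromosome. Among cells without any Y-linked UMI, those whose X-linked UMIs relative to autosomal ones were at least 1.2 times the median of cells with 2 or more Y-linked UMIs were called X-high, and the others X-low. In the stem cell clusters X-high and X-low cells numbered 5542 and 2957 at time 1, and 3158 and 14568 at time 2. In cells without an autosomal gain Fancb was at 5.27 CPM in X-low and 8.38 in X-high cells at time 1 (log2 0.66, 0.53 to 0.81), and at 5.14 and 9.29 at time 2 (0.84, 0.69 to 1.02). The median X gene had 0.79 and 0.85, over genes that include those used to call X-high cells, among which Fancb was not. Its intervals did not overlap between X-low and X-high cells in either library. In those cells the log2 ratio of the sum of the 29 was -0.04 and -0.02. Over all stem cells without Y-linked UMIs, 1 gene was higher in X-high cells and 0 lower at time 1 (19.5% and 10.4% of all genes), and 3 were higher and 5 lower at time 2 (25.8% and 12.7%). At time 2, in cells without a gain, Fancg (0.43) and Atr (0.34) were higher beside Fancb, and Trp53bp1 (-0.63) and Nbn (-0.35) lower. Of all genes 23.1% were higher and 14.1% lower in that comparison. The part of cluster in it was not tested.

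X content and autosomal gains went together in these libraries. The median X gene had -0.61 and -0.58 in cells with a gain of chromosome 8, and -0.53 and -0.64 with a gain of 1, against cells without a gain. Fancb had -0.34 and -0.44 with a gain of 8, and -0.21 and -0.57 with a gain of 1. The part of X content in the ratios of Fancb over gain classes or between time points was not tested.

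Beside the 29 genes, 28 others of recombination and crosslink repair had a median log2 ratio of 0.10 between time points, with 4 higher and 4 lower. All genes had a median of -0.12, with 15.9% higher and 33.7% lower, the background for each of the 4 lists compared here between time points. The nuclease Dna2 (0.51), the topoisomerase Top3a (0.47) and the nuclease Fan1 (0.40) were highest, and Rad51d (-0.66), which works in 1 complex with Xrcc2, Rmi2 (-0.48) and Ube2t (-0.41) lowest. Of 21 other checkpoint and chromatin genes 3 were higher and 3 lower (median 0.03). The ATR partner Atrip had 0.55, the CHEK1 adaptor Clspn 0.51 and the ATR activator Etaa1 0.46, while the smallest RPA subunit Rpa3 went from 100 to 43.0 CPM (-1.22), H2afx had -0.49 and Mad2l2 -0.41.

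End joining, the route that rejoins ends without a template, had 3 of 14 genes higher and 1 lower (median 0.04). Parp1 went from 330 to 659 CPM (1.00) and Xrcc5, which encodes the larger Ku subunit, from 68.9 to 127 (0.88), followed by Nhej1 at 0.56, and Polm had -0.37. Parp1, Xrcc5 and Nhej1 lie on chromosome 1: in cells without a gain their ratios between time points were 0.72, 0.58 and 0.21, and within time 2 a gain of chromosome 1 gave 0.42, 0.47 and 0.59. Of 12 p53 targets 0 were higher and 6 lower (median -0.30), with Trp53inp1 at -1.07, Btg2 at -0.82 and Ccng1 at -0.58.

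Over the S-phase quintiles, 11 of the 28 other recombination genes were higher and 1 lower at time 1, and 13 and 1 at time 2. The share of all genes was 13.8% and 13.2%, then 13.9% and 11.6%. Rad51ap1 (0.80 and 0.78), Dna2 (0.68 and 0.76) and Brip1 (0.57 and 0.69) led, and the nuclease Mus81 was the lower one (-0.42 and -0.50). Checkpoint genes gave 8 and 1, then 6 and 2, with Clspn at 0.88 and 1.17 and H2afx at -0.55 and -0.68. End joining genes gave 3 and 2, then 2 and 0. In fibroblast-like cells, 22 and 21 of the 28 recombination genes, 19 and 19 of the 21 checkpoint genes and 11 and 11 of the 14 end joining genes were lower, against 38.9% and 38.8% of all genes. There 2 end joining genes were higher in each library, where 37.4% and 37.6% of all genes were, among them Paxx, at 1.95 CPM in stem cells and 7.19 in fibroblast-like cells at time 1.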

How the data were processed

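Droplet libraries (10x) of the pooled lines at 2 time points were analysed. Each deposited matrix is a table of UMI counts, with genes against barcodes. Per the file headers, the authors ran Cell Ranger 6.1.2; bcl2fastq 2.20.0.422 and the builds mm10 and GRCm38 are named in the submitters' processing notes. A barcode counted as a cell if its UMIs reached 0.1 times the 99th percentile (taken over the top 20000 barcodes) and it had 1000 genes or more, with no more than 10% of its UMIs mitochondrial. Scrublet's automatic threshold marked 0 and 1 cells, so cells above the median score of simulated doublets (8.35% and 7.48%) were removed. Library totals were 1735810403 and 1843588321 UMIs. Clusters came from 2000 variable genes, 30 components and 15 neighbours (scanpy 1.11.5, igraph 0.11.9, Python 3.11.15), without the 29 genes.

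UMIs were summed over cells, divided by the group's total and given as CPM (per 1000000). With 1 library per time point and cells not assigned to lines, no test was made; intervals are exact Poisson intervals, or conditional ones for ratios. Ratios use a pseudocount of 0.1 CPM, and a gene is past the threshold at a ratio of 0.8 or less, or of its inverse or more. TMM factors came from edgeR 4.0.16. The scripts were tested on simulated data. The design named the reference cells after pluripotent stem cells. They are called stem cell clusters here because none of the 4 clusters had a pluripotency marker among its leading genes.

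All 29 genes are named. The plan was to name the 4 highest and 4 lowest of them in each main comparison, and those on a gained chromosome or on X. Of each other list it was to name the 3 highest and 3 lowest. Not all of these are named above, and names beyond them were chosen after their values were seen. The 29 genes and the lists were chosen with earlier results of these data known. Positions are GENCODE M21 (GRCm38), which matched 32235 of 32285 genes. Promoter windows are RefSeq's. Line tags were not used here.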

Additional observations from a re-analysis of the deposited data

How the results depend on the processing

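Each library was treated as 1 sample, so no replicate could be left out. No paired analysis was made because cells were not assigned to lines here, which leaves 1 sample at each time point. The log2 ratio of the summed 29 genes between time points (0.189) was 0.271 with the primed epiblast-like and Rpgrip1-led clusters added to the stem cell clusters. It was 0.277 over all cells, 0.208 as a mean over cells, 0.34 with TMM scaling, 0.065 at equal S-phase shares, 0.129 in cells without a gain and 0.0772 within the Jam2-led cluster. Within the Rhox9-led cluster it was -0.0129, with the other sign. The count of 9 genes past the threshold (7 higher and 2 lower, beside 15.9% and 33.7% of all genes) ranged from 7 to 10. With TMM scaling it was 10 higher and 0 lower (25.1% and 24.8%), and in cells without a gain 6 and 1 (14.5% and 26.7%). At equal S-phase shares it was 8, higher and lower together, and the share of all genes is not given for that setting. The S-phase ratio (0.493 and 0.453) was 0.58 and 0.546 with all UMIs of a cell, 0.613 and 0.569 over 10 equal groups, and 0.526 and 0.468 as a mean over cells. Within clusters it was 0.506 (Rhox9-led, time 1), 0.404 and 0.397 (Jam2-led) and 0.437 (Nanos3-led, time 2). The fibroblast-like ratio (-1.18 and -1.01) was -1.06 and -1.22 as a mean over cells, -0.968 at time 2 with doublets kept, and -2.37 and -2.41 in the quintile with least stem cell RNA. The chromosome 8 ratio at time 1 (0.0629) was 0.0304 at equal S-phase shares. At time 2 (0.0308) it was 0.0483 with gains called at 1.2 times, -0.0126 at 1.4 times, with the other sign, and 0.0159 within the Nanos3-led cluster. The chromosome 1 ratio at time 2 (0.113) was 0.089 at 1.2 times, 0.1 with the other autosomes as base and 0.0742 at equal S-phase shares. The cause of these differences was not tested. Alternatives by cluster for the time and S-phase ratios, by equal S-phase shares of the gene count and by least stem cell RNA were chosen after seeing the data. Genes near 3 CPM (Xrcc3, Fancg) rest on the fewest counts, and in groups of under 150 cells their intervals are wide.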
